A study of Mus musculus with 8 samples.

Results

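The respiratory chain genes are the genes whose products build the electron transport complexes and the ATP synthase of the inner mitochondrial membrane. They were chosen by name, from symbols of the Nduf (complex I), Sdh (complex II), Uqcr (complex III), Cox4 to Cox8 (complex IV) and Atp5 (complex V) families and from the protein-coding genes of the mitochondrial genome. The rule took 99 of the 38392 genes, 88 in the nucleus and 11 in mitochondrial DNA, and dropped 10 further symbols with -ps in the name. Ndufa11b, Ndufb4c, Ndufs6b and Cox6c2 are annotated as processed pseudogenes but lack that mark, and they were kept among the 88. By name, 40 nuclear genes were counted under complex I, 4 under complex II, 8 under complex III, 19 under complex IV and 17 under complex V. Of the 99 genes, 85 had a mean of at least 10 reads over the libraries, 78 of them nuclear and 7 mitochondrial. mt-Co3 and mt-Atp8 were not analysed here.

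RNA was measured by RNA-seq in eosinophils sorted from wildtype C57/BL6 female mice, with 4 libraries from bone marrow (BM_1, BM_3, BM_4 and BM_5) and 4 from small intestine (SI_6, SI_7, SI_10 and SI_11). Bone marrow cells were sorted as CD11b+ Ly6G- Ly6C- SiglecF+ with high side scatter, and intestinal cells as CD11b+ MHC-II- SiglecF+ with high side scatter. No mouse carried an allele or received an agent according to the labels. The intestine was stripped of epithelium, digested warm with collagenase and enriched on anti-CD11b beads, whereas bone marrow was flushed and sorted directly, so tissue and handling cannot be told apart. The libraries held 11508002 to 21289164 reads in genes.

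Respiration passes electrons from NADH through complex I, or from succinate through complex II, to ubiquinone, on to complex III and cytochrome c, and to oxygen at complex IV. Complexes I, III and IV pump protons as they do so, and complex V lets the protons back to make ATP. Most subunits are encoded in the nucleus and imported, while a small core of complexes I, III, IV and V is encoded in mitochondrial DNA and complex II is entirely nuclear. Eosinophils mature in the bone marrow and enter tissues such as the intestinal wall as mature cells.

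The labelled cell type was checked against its markers. Of 9 eosinophil genes, 5 were called lower in small intestine and 3 higher. Their median difference was -2.46 in deposited log2 values, with a range from -4.28 to 7.83. Together these genes took 0.0205% to 0.0345% of the reads in the bone marrow libraries and 0.109% to 0.147% in small intestine. The summed share thus rose although 5 of the 9 genes were called lower. Reads of Siglecf, a marker used in the sort, rose from 489 to 642 normalised reads in bone marrow to 2646 to 3820 in small intestine. The granule protein gene Epx went the other way, from 303 to 398 in bone marrow to 12.5 to 29.5 in small intestine. A normalised read count is the number of reads of a gene divided by a size factor that the authors set for each library. Genes of neutrophil precursors took 3.83% to 4.57% of the reads in the bone marrow libraries and 0.248% to 0.329% in small intestine. In every library this exceeded the share of the eosinophil genes. Of the 12 neutrophil precursor genes, 10 were called lower in small intestine and 2 higher, with differences from -9.88 to 6.94. Genes of dividing cells took 0.372% to 0.435% and 0.0200% to 0.0582%. Intestinal epithelial genes took 0.00134% to 0.00159% in bone marrow and 0.0219% to 0.145% in small intestine, with the highest share in SI_6. Genes of macrophages and dendritic cells took 0.00663% to 0.00761% and 0.105% to 0.170%, a larger share than the epithelial genes in each small intestine library, and 9 of 10 were called higher. Genes of B and plasma cells took 0.0127% to 0.0169% and 0.0239% to 0.125%, with 2 of 7 called higher and 1 lower, and fibroblast genes took at most 0.000359% and 0.00436%. Erythroid genes were the lower ones, at 0.00754% to 0.010% and 0.000310% to 0.00107%, with 7 of 9 called. SI_6 was also the highest small intestine library for the macrophage and the B cell genes. The part of these other cells in the differences below was not tested. In bulk RNA, fewer cells of a type and less RNA per cell cannot be told apart.

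Nuclear respiratory chain genes took a smaller share of the reads in small intestine. They held 0.602% of the reads in BM_1, 0.584% in BM_3, 0.617% in BM_4 and 0.553% in BM_5. In the small intestine libraries they held 0.426% in SI_6, 0.277% in SI_7, 0.239% in SI_10 and 0.268% in SI_11. Every small intestine library stood below every bone marrow library, and SI_6 stood nearest to bone marrow. The 11 mitochondrial genes held 0.883%, 0.970%, 0.741% and 1.04% of the reads in the bone marrow libraries and 0.964%, 0.647%, 0.545% and 0.638% in the small intestine libraries, in the order above, and the tissues overlapped. The mitochondrial genes made up 59.5%, 62.4%, 54.6% and 65.2% of all respiratory chain reads in bone marrow and 69.4%, 70.0%, 69.5% and 70.4% in small intestine. The means were 60.4% ± 4.55 and 69.8% ± 0.467 (SD, n = 4 each), and the tissues did not overlap. For each nuclear read there were 1.55 ± 0.286 mitochondrial reads in marrow libraries and 2.31 ± 0.0515 in intestinal ones (SD, n = 4 each). This ratio lies inside each library and does not depend on the scaling between libraries. The mitochondrial reads came almost wholly from 7 of the 11 genes, since the other 4 had 2 to 57 reads over all libraries. mt-Co3 and mt-Atp8 are not in these sums. These shares are given as a description with no test.

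**Figure D1:**
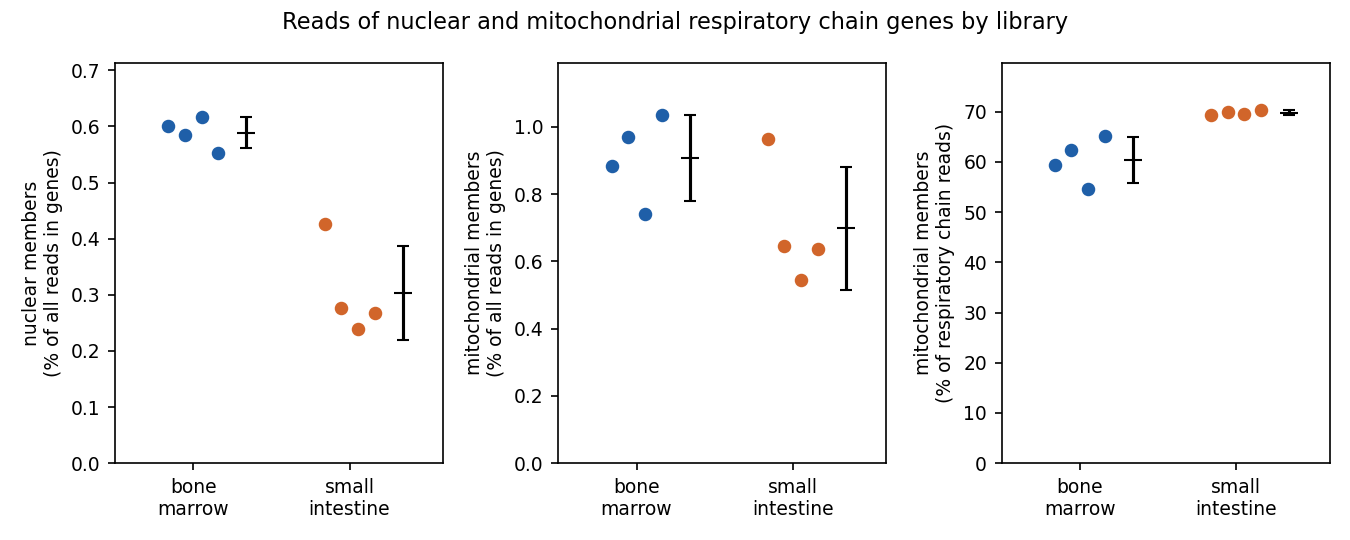
Reads of nuclear members and of mitochondrial members as a percentage of all reads in genes, and mitochondrial members as a percentage of respiratory chain reads. Points are libraries (bone marrow BM_1, BM_3, BM_4, BM_5 and small intestine SI_6, SI_7, SI_10, SI_11, from left to right), and bars are the mean ± SD of 4 libraries. The nuclear share is lower in every small intestine library, and the mitochondrial part of respiratory chain reads is higher in each of them.

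Gene by gene, 31 of the 99 members were called lower in small intestine and 5 higher, and 63 were not called (limma on the deposited log2 values, Benjamini-Hochberg adjusted p under 0.05 over all 38392 genes). Of all genes, 12.9% were called lower and 22% higher. Among genes averaging 10 or more reads the background was 28.6% lower and 34.6% higher, and among the 78 nuclear members with that coverage 39.7% (31 genes) were lower and 3.85% (3 genes) higher. All 36 calls were nuclear genes. The share of lower calls is thus moderately above its background, while the share of higher calls is far below its own, and no test of either gap was made. Every small intestine library stood below every bone marrow library for 31 members, against 13.9% of all genes, and above it for 7 members, against 20.3% of all genes. Most genes have few reads, so covered genes are the closer background. Among the 16215 genes averaging 10 or more reads, 5078 lay wholly below and 5845 wholly above. Of the 78 nuclear members with that coverage, 30 lay wholly below and 5 wholly above. The median difference between tissues, with bone marrow subtracted from small intestine in deposited log2 values, was -0.54 over the nuclear members and 0.37 over all genes. Genes averaging 10 or more reads had a median of 0.12. The counts moved when single libraries were left out. Without BM_1, 20 members were called lower and 2 higher, and without BM_4, 22 lower and 2 higher. Over all genes the shares without BM_1 were also smaller, at 11.2% lower and 17.5% higher. Without SI_7, 24 members were called lower, and without SI_6, 44. The 4 libraries of a tissue came from separate samples by their labels, and p-values measure the spread between these samples.

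**Figure D2:**
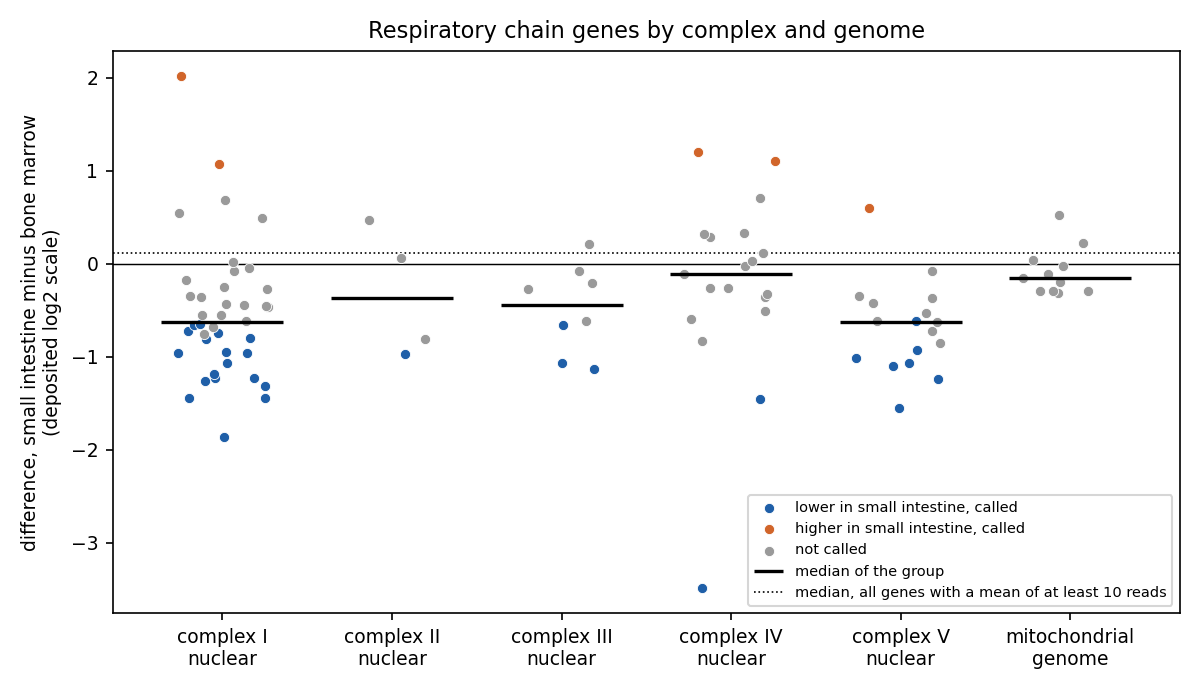
Difference of each of the 99 members, as small intestine minus bone marrow in deposited log2 values, by complex for nuclear members and together for mitochondrial members. Blue and orange points are genes called lower and higher (limma, adjusted p under 0.05), grey points were not called, black bars are group medians, and the dotted line is the median of genes averaging 10 or more reads (0.12). Nuclear medians lie below 0 in all 5 complexes, and no mitochondrial gene is called, although 3 to 5 were called lower with centring on all genes, quantile normalisation or library sizes that left out mitochondrial and ribosomal RNA.

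Complex V, the ATP synthase, held the most abundant transcripts among the nuclear members. Its summed normalised reads from nuclear genes went from 46940 ± 3022 in bone marrow to 25265 ± 8560 in small intestine (SD, n = 4 each). Of its 17 nuclear genes, 7 were called lower and 1 higher, with a median difference of -0.63. Atp5b encodes the catalytic beta subunit of the F1 head. Its normalised reads were 29962, 28302, 29410 and 26411 in the bone marrow libraries and 22040, 13761, 9230 and 12308 in SI_6, SI_7, SI_10 and SI_11. The tissues did not overlap, and the difference was -1.06 ± 0.27 on the log2 scale (SE, n = 4 each; limma adjusted p = 0.016). Atp5a1, which encodes the alpha subunit of the same head, had means of 6493 ± 642 and 3357 ± 1314 (SD, n = 4 each) and a difference of -1.02 ± 0.28 (SE; limma adjusted p = 0.020), a call that was lost without BM_1 or without BM_4. Both genes together made up 42.9% to 45.8% of the nuclear respiratory chain reads in bone marrow and 31.8% to 41.2% in small intestine. Atp5c1, the gene of the central gamma subunit, was at -0.63 ± 0.24 and was not called (limma adjusted p = 0.074).

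The membrane ring that turns in the ATP synthase is made of a single c subunit, which is encoded by 3 genes with different import sequences. Atp5g1 stood at 1015, 1033, 1026 and 947 normalised reads in bone marrow and at 643, 327, 196 and 322 in small intestine, a difference of -1.55 ± 0.34 (SE, n = 4 each; limma adjusted p = 0.00675). Atp5g2 stood at 247, 249, 272 and 254 and at 110, 104, 90.8 and 122, a difference of -1.24 ± 0.18 (limma adjusted p = 0.000775). Atp5g3 stood at 1150, 1038, 1012 and 1064 and at 1180, 696, 478 and 588, a difference of -0.62 ± 0.29 that was not called (limma adjusted p = 0.138). The first pair of genes separated the tissues completely, whereas Atp5g3 overlapped through SI_6. Per kilobase of exon, Atp5g3 made up 57.8% ± 1.86 of the transcripts of the 3 genes in bone marrow against 70.2% ± 3.07 in the intestine (SD, n = 4 each), and Atp5g1 made up 24.2% ± 1.04 and 15.4% ± 2.11.

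The other called falls in complex V were Atp5j, Atp5h and Atp5pb, which encode parts of the stalk that holds the head still. Atp5j had 1085 ± 91.5 normalised reads in bone marrow against 512 ± 113 in small intestine (SD, n = 4 each), a difference of -1.10 ± 0.21 (SE; limma adjusted p = 0.00379). Atp5md, which encodes a small membrane subunit of the ATP synthase, was called in the opposite direction. It had 136, 152, 135 and 104 normalised reads in bone marrow and 202, 187, 193 and 218 in small intestine, a difference of 0.60 ± 0.19 (SE, n = 4 each; limma adjusted p = 0.0386). The tissues did not overlap, but the direction turned to -0.30 when each library was centred on its median over all genes, and the call was also lost with centring on genes of 10 or more reads, with library sizes that left out mitochondrial and ribosomal RNA and without BM_1 or BM_4.

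**Figure D3:**
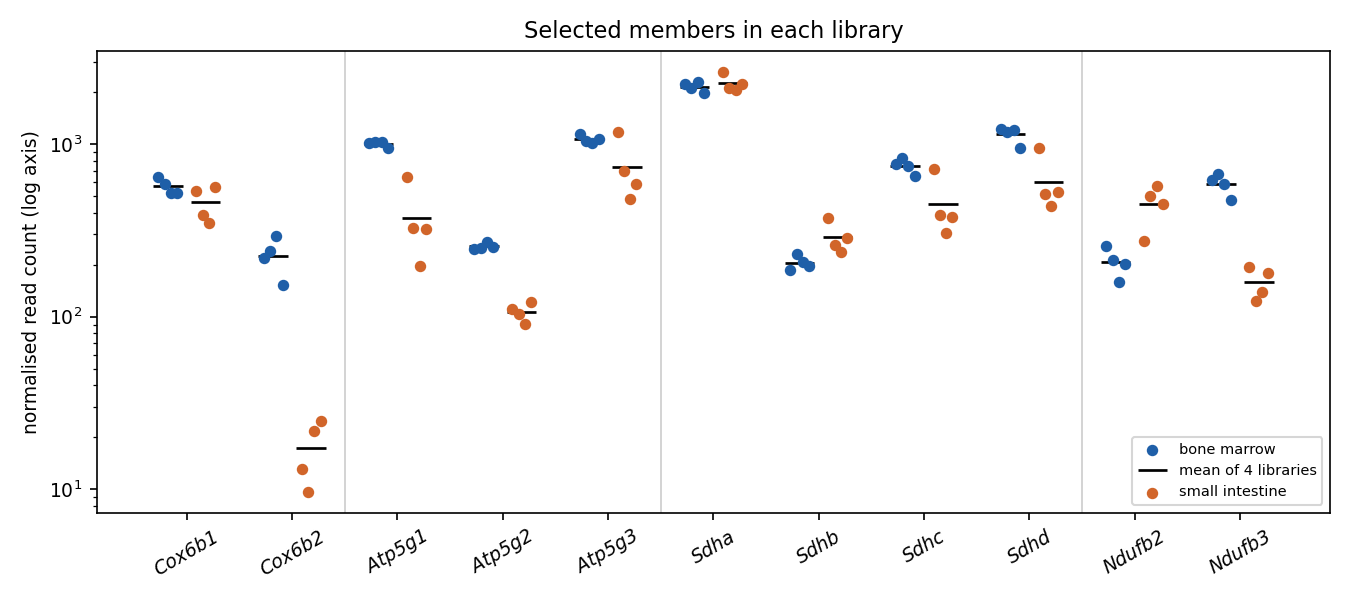
Normalised read counts, on a log axis, of the Cox6b genes of complex IV, the c subunit genes of complex V, the 4 genes of complex II, and Ndufb2 and Ndufb3 of complex I. Points are libraries of bone marrow (blue) and small intestine (orange), and bars are means of 4 libraries. Cox6b2 shows the widest gap, Sdha shows none, and Ndufb2 runs against Ndufb3.

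Complex I, the NADH dehydrogenase, had the most members and gave the largest number of calls. Lower calls made up 45% of its nuclear members, 41.2% in complex V, 37.5% in complex III, 25% in complex II and 10.5% in complex IV. Among genes averaging 10 or more reads, 28.6% were called lower and 34.6% higher. Of the 40 nuclear genes of complex I, 18 were lower and 2 higher, with a median difference of -0.63. The largest fall was that of Ndufb3, an accessory subunit of the membrane arm, which had 623, 667, 586 and 472 normalised reads in bone marrow and 194, 123, 140 and 179 in small intestine. The level was 3.69-fold higher in bone marrow, and the difference was -1.87 ± 0.22 on the log2 scale (SE, n = 4 each; limma adjusted p = 0.00028). Ndufv3, an accessory subunit of the NADH-binding module, was at -1.45 ± 0.22 (limma adjusted p = 0.000954), and Ndufc2, of the membrane arm, at -1.45 ± 0.25 (limma adjusted p = 0.0022). All 3 separated the tissues completely.

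The core subunits of complex I described here, which carry the flavin and the iron-sulphur clusters or lie beside them, had differences from -1.31 to -0.44. Ndufs8 fell from 512 ± 85.9 to 208 ± 62.9 normalised reads and Ndufv2 from 535 ± 52.3 to 230 ± 57.1 (SD, n = 4 each), with differences of -1.31 ± 0.25 and -1.23 ± 0.22 (SE; limma adjusted p = 0.00368 and 0.00269). Both hold iron-sulphur clusters. Ndufs1 was at -0.65 ± 0.18 (limma adjusted p = 0.0236) and Ndufs7 at -0.64 ± 0.22 (limma adjusted p = 0.0477), and both calls were lost without BM_1 or BM_4, that of Ndufs7 also without BM_3, SI_7, SI_10 or SI_11. Ndufv1, which binds NADH, was at -0.62 (limma adjusted p = 0.126) and Ndufs3 at -0.44 (limma adjusted p = 0.309), and neither was called. No test of the difference between these subunits was made.

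Ndufa4, named for complex I but now assigned to complex IV, had 805 ± 111 and 339 ± 89.5 normalised reads (SD, n = 4 each), a difference of -1.26 ± 0.23 (SE; limma adjusted p = 0.00299). By its name it was counted under complex I here, and it is not in the counts or median of complex IV. Ndufb2, an accessory subunit of the membrane arm, was called higher in small intestine. It had 257, 215, 160 and 201 normalised reads in bone marrow and 275, 502, 572 and 453 in small intestine, a difference of 1.07 ± 0.28 (SE, n = 4 each; limma adjusted p = 0.0162). The tissues did not overlap, although SI_6 stood close to BM_1, and the call was lost when libraries were centred on the median over all genes. The transcript overlaps Braf on the opposite strand, and since the strand setting of the counting is not given in the sources used here, reads of the overlap cannot be assigned. Ndufa11b, a single-exon relative of Ndufa11 that is annotated as a processed pseudogene, was also called higher (limma adjusted p = 0.0167). It had 0, 0, 0 and 1 reads in bone marrow and 1, 14, 7 and 3 in small intestine. The call was lost with quantile normalisation or without BM_1, BM_3, BM_4 or SI_10.

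**Figure D4:**
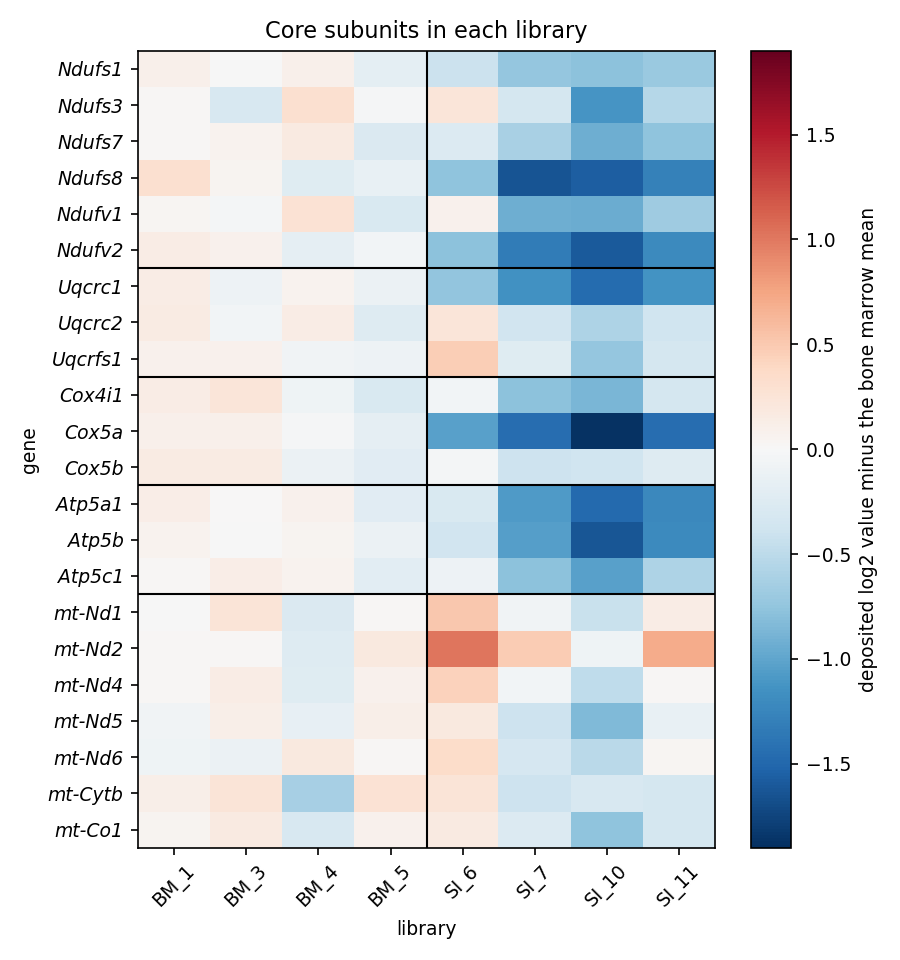
Core subunits reported here of complexes I, III and V, the nuclear subunits Cox4i1, Cox5a and Cox5b of complex IV, and the 7 well-covered mitochondrial members. Each library is shown as the deposited log2 value minus the mean of the 4 bone marrow libraries. Blue is below and red above that mean. Ndufs8, Ndufv2, Uqcrc1 and Cox5a are blue in all 4 small intestine libraries, and SI_6 is the lightest or reddest small intestine column.

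Complex II, the succinate dehydrogenase, also serves the citric acid cycle and has only nuclear subunits. The median over its 4 genes was -0.37, with the catalytic subunits at 0.06 and 0.47, which depended on the scaling, and both membrane anchors below 0. Sdha, which holds the flavin and oxidises succinate, had 2240, 2108, 2285 and 1987 normalised reads in bone marrow and 2627, 2105, 2059 and 2218 in small intestine. Sdhb, which holds the iron-sulphur clusters, had 188, 230, 207 and 196 and then 373, 262, 236 and 284. Sdha overlapped between tissues, with a difference of 0.06 ± 0.18 (SE, n = 4 each; limma adjusted p = 0.82). With library sizes that left out mitochondrial and ribosomal RNA it turned to -0.35 and was called lower (limma voom adjusted p = 0.0157). Sdhb was higher in all 4 small intestine libraries, with a difference of 0.47 ± 0.20 that was not called (limma adjusted p = 0.115). It was called higher with an intensity trend, quantile normalisation, the 10-read filter or without SI_10, and stood at -0.43, not called, with centring on all genes.

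Of the membrane anchors of complex II, Sdhd had 1227, 1173, 1210 and 944 normalised reads in bone marrow and 944, 514, 436 and 525 in small intestine, a difference of -0.97 ± 0.27 that was called (SE, n = 4 each; limma adjusted p = 0.0231). Sdhc had 763, 837, 744 and 653 and then 722, 391, 306 and 378, a difference of -0.81 ± 0.28 that was not (limma adjusted p = 0.0552). For both anchors SI_6 lay within or at the edge of the bone marrow range and the other 3 small intestine libraries lay below it. The call for Sdhd was lost without BM_1, BM_3, BM_4, SI_7 or SI_11. The gap between anchors and catalytic subunits was not tested.

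Complex III passes electrons from ubiquinol to cytochrome c. Of its 8 nuclear genes, 3 were called lower and none higher, with a median difference of -0.45. Uqcrc1, one of a pair of core proteins that face the matrix, had 1243, 1046, 1174 and 1044 normalised reads in bone marrow and 665, 505, 404 and 507 in small intestine, a difference of -1.13 ± 0.21 (SE, n = 4 each; limma adjusted p = 0.00297). Its partner Uqcrc2 had 1188 ± 148 and 998 ± 264 (SD, n = 4 each), a difference of -0.28 ± 0.23 that was not called (limma adjusted p = 0.417). Uqcr11, a small subunit, was at -1.07 ± 0.26 (limma adjusted p = 0.0115). Uqcrb, another small subunit, was at -0.66 ± 0.21 (limma adjusted p = 0.039), a call that was lost without BM_1, BM_3, BM_4 or SI_6. Its transcript shares 29.1% of its 75-base windows with genes elsewhere. Uqcrfs1, the Rieske iron-sulphur protein, was at -0.20 ± 0.27 (limma adjusted p = 0.566) and Uqcrh, the hinge protein, at 0.21 ± 0.20 (limma adjusted p = 0.464).

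Complex IV, the cytochrome c oxidase, had the smallest median shift, -0.11 over 19 genes, with 2 called lower and 2 higher. That median includes 6 genes with under 10 reads, and over the 13 others it was -0.33. Several subunits of this complex exist as a common form and a form known from heart, muscle or testis. Cox6b2, known as the testis form of a subunit at the outer face of the complex, gave the largest fall of any member. It had 218, 241, 293 and 153 normalised reads in bone marrow and 13.1, 9.71, 21.9 and 24.9 in small intestine. The mean was 13-fold higher in bone marrow, with no overlap, and the difference was -3.48 ± 0.32 (SE, n = 4 each; limma adjusted p = 6.33e-05). The common form Cox6b1 had 648, 590, 522 and 522 and then 538, 390, 351 and 565, a difference of -0.33 ± 0.22 that was not called (limma adjusted p = 0.3). Per kilobase of exon, Cox6b2 made up 17.7%, 20.7%, 26.4% and 15.8% of the transcripts of both genes in bone marrow and 1.53%, 1.57%, 3.83% and 2.74% in small intestine.

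Cox5a, a nuclear subunit at the matrix face, was the other called fall among the genes counted under complex IV by name. It had 669, 670, 620 and 558 normalised reads in bone marrow and 303, 229, 168 and 228 in small intestine. Its difference was -1.45 ± 0.22 (SE, n = 4 each; limma adjusted p = 0.00108). Cox4i1, which it contacts, was at -0.51 ± 0.25 (limma adjusted p = 0.158) and Cox5b, a zinc-binding subunit, at -0.26 ± 0.19 (limma adjusted p = 0.336), and both overlapped between tissues. The 2 calls in the other direction were muscle forms at few reads. Cox7a1 had 11, 7, 4 and 7 reads in bone marrow and 20, 12, 13 and 14 in small intestine (difference 1.20 ± 0.23, SE; limma adjusted p = 0.00375), and Cox8b had 1, 4, 1 and 4 and then 7, 8, 4 and 5 (1.10 ± 0.30; limma adjusted p = 0.0218). Both calls were lost with centring on all genes, quantile normalisation or library sizes that left out mitochondrial and ribosomal RNA, and that of Cox8b also with an intensity trend, with voom on the recovered reads or without BM_1, BM_4, SI_6 or SI_7. Markers of smooth muscle took 0.000550% to 0.00137% of the reads in bone marrow and 0.00479% to 0.0117% in small intestine, all 6 of them called higher, and their part in the rise of Cox7a1 and Cox8b was not tested. The common forms Cox7a2 and Cox8a made up 93.3% ± 0.895 and 97.0% ± 1.90 of the transcripts of their sets per kilobase of exon even in small intestine (SD, n = 4). Cox4i2, Cox6a2, Cox7b2, Cox8c and Ndufa4l2 had a mean of at most 2.13 normalised reads in either tissue, and none was called.

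The mitochondrial genes gave no call, with differences from -0.31 to 0.53 and a median of -0.15. None of the 11 had an unadjusted limma p under 0.05. mt-Co1, the catalytic subunit of complex IV, had 39741, 43159, 30818 and 40271 normalised reads in bone marrow and 42973, 32026, 22492 and 30336 in small intestine. mt-Cytb, the cytochrome b of complex III, had 33456, 36514, 19934 and 37618 and then 36769, 23659, 25099 and 24418. Both overlapped between tissues, at -0.30 ± 0.24 (SE, n = 4 each; limma adjusted p = 0.409) and -0.20 ± 0.27 (limma adjusted p = 0.593). mt-Nd2, a membrane subunit of complex I, stood highest, with 7769, 7787, 6445 and 8689 and then 15414, 10650, 7205 and 12441, a difference of 0.53 ± 0.26 (limma adjusted p = 0.166). mt-Nd1, mt-Nd4, mt-Nd5 and mt-Nd6, all of complex I, lay between -0.30 and 0.04. mt-Nd6 is the only one of these read from the other strand of the circle. The absence of calls depended on the scaling: 4 mitochondrial genes were called lower with centring on all genes, 3 with quantile normalisation and 5 with library sizes that left out mitochondrial and ribosomal RNA, whereas mt-Nd2 was called higher with an intensity trend, with voom on the recovered reads or without SI_10, and stood at -0.37 with centring on all genes and at -0.25 with quantile normalisation. The mitochondrial ribosomal RNAs, which come from the same circular DNA, were not called either (mt-Rnr1 -0.32, mt-Rnr2 -0.38). They took 14.1% to 18.8% of the reads in bone marrow and 7.94% to 17.0% in small intestine, with SI_6 the highest of the latter.

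Another 4 mitochondrial genes were almost without reads. Over all 8 libraries mt-Co2 had 2 reads, mt-Nd4l 2, mt-Atp6 4 and mt-Nd3 57, beside 302189 for mt-Co1. Copies of mitochondrial DNA lie in the nuclear genome, and for these 4 genes 97.8% to 99.5% of the 75-base windows also occur in an annotated nuclear copy. The following stretch of mt-Co2 (chrM:7013-7696, positions 217 to 291 counted from 1 at the first base of the gene), of the pseudogene Gm28661 (chr1:24614885-24615565, minus strand) and of the pseudogene Gm13341 (chr2:22587291-22587962, minus strand), all in GRCm38 from GENCODE, is shown because it lets the exact copy be told from the diverged one. Capitals mark the positions where Gm13341 differs, T231C, T255C and T291G, with the mitochondrial base first.
mt-Co2: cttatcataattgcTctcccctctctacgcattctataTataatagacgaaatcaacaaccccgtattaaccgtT
Gm28661: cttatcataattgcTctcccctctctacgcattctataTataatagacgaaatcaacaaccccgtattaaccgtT
Gm13341: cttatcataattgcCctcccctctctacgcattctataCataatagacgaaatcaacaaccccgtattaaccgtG
Gm28661 has no mismatch to mt-Co2 over its 681 bases, so a 75-base read inside that length cannot tell one from the other. Gm13341 has 16 mismatches over 672 aligned bases (97.6% identity). Gm10925 (mt-Atp6, 678 bases), Gm10222 (mt-Nd4l, 294 bases) and Gm28439 (part of mt-Nd4, 876 bases) likewise had no mismatch, and Gm28438 (mt-Nd3, 345 bases) had 1. The copies themselves were not counted highly, with 27 to 102 reads over all libraries for the 5 on chromosome 1. How reads that match several places were treated is not given in the sources used here, and its part in these low counts was not tested. mt-Nd4 and mt-Co1, with 61.5% and 39.8% of windows shared, had 73887 and 302189 reads. The near-zero genes were left in the count of 11, and their reads are too few to compare the tissues.

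**Figure D5:**
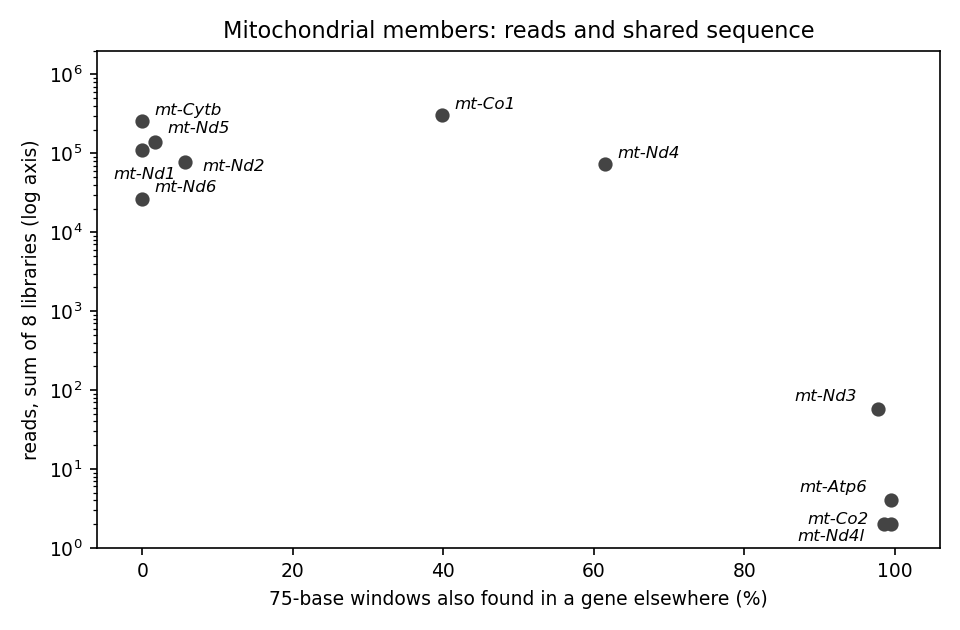
Reads of the 11 mitochondrial members summed over 8 libraries, on a log axis, against the percentage of their 75-base windows that also occur in a gene elsewhere in the genome. Points are genes. The 4 genes with over 97% of windows shared have 2 to 57 reads, and the other 7 have 26798 to 302189.

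Promoters of the nuclear members were searched for 3 short motifs on both strands: CGCATGCG (core of the NRF1 motif), CCGGAAG (ETS family, bound by GABPA) and AAGATGGCG (YY1). NRF1, GABPA and YY1 are known regulators of respiratory chain genes. Of the 88 nuclear members, 68 matched the RefSeq table (GRCm38.p6), with 73 windows of 250 bases before to 50 after a transcription start. CGCATGCG was in 12.3% of these windows, against 1.87% of all 32851 windows, CCGGAAG in 23.3% against 8.86%, and AAGATGGCG in 9.59% against 1.40%. Any of the 3 was in 37.0% against 11.5%. Among members called lower, 24.1% of 29 windows held CCGGAAG, and among those not called 22.5% of 40 did. For CGCATGCG these shares were 17.2% and 10%. A match describes letters in a window, not a bound site. The windows below run from 190 bases before to 10 after the RefSeq start, with motif matches in capitals (CTTCCGG is CCGGAAG read on the other strand). Atp5j, Uqcr11 and Atp5g2 are shown as members called lower, the first with all 3 motifs (a second RefSeq start of Atp5j, with its window at chr16:84835576-84835875, held none), and Cox6a1 as a member with matches that was not called (difference -0.26). All 4 lie on the minus strand, at chr16:84834967-84835166, chr10:80406812-80407011, chr15:102671038-102671237 and chr5:115348949-115349148. The Atp5j window lies inside the annotated gene Gabpa (chr16:84834925-84863779), which runs on the plus strand, so its motifs cannot be assigned to Atp5j alone.
Atp5j: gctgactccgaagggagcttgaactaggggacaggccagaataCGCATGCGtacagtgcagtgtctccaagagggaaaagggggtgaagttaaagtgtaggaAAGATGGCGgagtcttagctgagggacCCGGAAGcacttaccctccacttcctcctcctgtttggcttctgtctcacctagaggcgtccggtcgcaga
Uqcr11: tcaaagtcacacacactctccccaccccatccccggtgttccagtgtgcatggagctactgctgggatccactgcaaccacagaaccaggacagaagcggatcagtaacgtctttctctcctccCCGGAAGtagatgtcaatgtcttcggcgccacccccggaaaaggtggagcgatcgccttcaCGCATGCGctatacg
Atp5g2: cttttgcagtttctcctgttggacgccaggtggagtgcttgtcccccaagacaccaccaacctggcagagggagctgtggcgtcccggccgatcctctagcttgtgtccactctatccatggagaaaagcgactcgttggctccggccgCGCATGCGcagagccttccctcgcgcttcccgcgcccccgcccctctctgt
Cox6a1: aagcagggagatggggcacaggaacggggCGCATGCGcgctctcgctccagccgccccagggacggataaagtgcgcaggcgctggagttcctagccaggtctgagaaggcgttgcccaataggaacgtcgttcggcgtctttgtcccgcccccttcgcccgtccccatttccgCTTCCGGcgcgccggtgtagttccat

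The genes of the factors that bind these motifs were measured too. In the list of 10 nuclear regulators of mitochondrial genes, 5 were called lower and 3 higher. Of genes averaging 10 or more reads, 28.6% were called lower and 34.6% higher. Gabpa, the DNA-binding part of GABP, had 2904, 2866, 2821 and 2747 normalised reads in bone marrow and 1485, 1252, 1294 and 1614 in small intestine, a difference of -1.01 ± 0.18 (SE, n = 4 each; limma adjusted p = 0.00214), whereas its partner Gabpb1 was at 2.06 ± 0.21 (limma adjusted p = 0.000109). Nrf1 was at 0.15 (limma adjusted p = 0.522), and Yy1 was at -0.60 (limma adjusted p = 0.0341). Myc, a growth regulator, was at -2.05 (limma adjusted p = 0.000124), and Pprc1, a coactivator of these factors, at -1.10 (limma adjusted p = 0.00223). Its relative Ppargc1a had 5.36, 0.652, 0 and 9.30 normalised reads in bone marrow and 258, 154, 62.4 and 33.2 in small intestine, a difference of 4.27 ± 0.77 (limma adjusted p = 0.00263) with a wide spread in small intestine and its highest value in SI_6. Esrra, a nuclear receptor that works with it, was at 1.71 ± 0.21 (limma adjusted p = 0.000379).

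Genes that assemble the complexes were more often called lower than higher. The background among genes averaging 10 or more reads was 28.6% lower and 34.6% higher. Of 15 complex I assembly factors 9 were called lower and 1 higher, of 4 for complex II 1 lower, of 6 for complex III 3 lower and 1 higher, of 21 for complex IV 12 lower and 2 higher, and of 3 for complex V 2 lower. The share of lower calls for complex II, 25%, lay below that background. The medians ran from -0.43 for complex II to -1.08 for complex V. Bcs1l, which inserts the Rieske protein into complex III, had 153, 144, 130 and 137 normalised reads in bone marrow and 40.4, 44.4, 31.7 and 35.6 in small intestine, a difference of -1.80 ± 0.18 (SE, n = 4 each; limma adjusted p = 0.00012). Sco1, which delivers copper to complex IV, was at -1.86 ± 0.32 (limma adjusted p = 0.00222). Cox17, the chaperone that hands copper on to it, moved the other way and by far the most. It had 346, 314, 403 and 318 normalised reads in bone marrow and 3030, 3933, 6101 and 7875 in small intestine, a mean 15.2-fold higher and a difference of 3.82 ± 0.31 (limma adjusted p = 3.67e-05). Cmc2 at 1.96 (limma adjusted p = 0.000261), Ndufaf7, a methyltransferase, at 1.66 (limma adjusted p = 0.000406) and Ttc19 at 1.54 (limma adjusted p = 0.000614) were the other assembly genes called higher, and these 3 calls, like that of Esrra, were lost with centring on all genes. Acad9 at -1.46 (limma adjusted p = 0.00103), Ndufaf3 at -1.30 (limma adjusted p = 0.00126) and Ndufaf4 at -1.64 (limma adjusted p = 0.00713), all of complex I assembly, and Atpaf1 and Tmem70 of complex V, at -1.08 and -1.31 (limma adjusted p = 0.00324 and 0.00299), were among the falls.

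Of 24 genes for transcription, RNA stability and DNA maintenance in mitochondria, 12 were called lower and 3 higher, with a median of -0.82. Mgme1, a nuclease of mitochondrial DNA, was at -2.54 ± 0.22 (SE, n = 4 each; limma adjusted p = 4.98e-05), and Tbrg4, an RNA-binding protein also called FASTKD4, at -1.84 ± 0.26 (limma adjusted p = 0.000687). Tfb1m, a methyltransferase of mitochondrial ribosomal RNA, was at 1.42 ± 0.22 (limma adjusted p = 0.00119), a call that was also lost with that centring. Of 10 other electron carriers and subunits 5 were lower, led by Etfb, a part of the electron transfer flavoprotein, at -2.77 ± 0.22 (limma adjusted p = 2.99e-05), with Ndufab1, the acyl carrier protein of complex I, at -1.41 and Dhodh, which feeds electrons from pyrimidine synthesis to ubiquinone, at -1.45 (limma adjusted p = 0.00289 and 0.00255). Of 7 uncoupling proteins and carriers 2 were lower and 1 higher. The adenine nucleotide carriers Slc25a4 and Slc25a5, which exchange ADP for the ATP made by complex V, were at -2.06 ± 0.23 and -1.26 ± 0.27 (limma adjusted p = 0.000183 and 0.00671). The phosphate carrier Slc25a3, which brings in the other substrate of complex V, had 3365, 3324, 3595 and 3166 normalised reads in bone marrow and 6025, 6347, 6770 and 6991 in small intestine, a difference of 0.96 ± 0.17 (limma adjusted p = 0.00224), a call that was lost with centring on all genes. The background for these counts is 28.6% called lower and 34.6% higher among genes averaging 10 or more reads. The summed markers of neutrophil precursors and of dividing cells were likewise lower in all 4 small intestine libraries. Those of epithelium, macrophages and B cells were higher in all 4.

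Among the small intestine libraries SI_6 held the highest deposited value for 27 of the 31 members called lower, and SI_10 the lowest for 23. In bone marrow BM_1 was the highest for 16 and BM_5 the lowest for 20.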

How the data were processed

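Eosinophil RNA was amplified with the NuGEN Ovation system, sequenced from a single end, aligned by the authors to GRCm38 with Ensembl release 86 and counted with nf-core/rnaseq, per the study's methods. Strandedness of the counting and the handling of multiply matching reads: not given in the sources used here. The deposited values are on the log2-like scale of the variance stabilisation in DESeq2, under R 4.0.3 per the submitters' processing notes, on which 1 unit approaches a 2-fold change at high coverage and understates it at few reads. Column names gave the tissue but not the single sample, so libraries are named by their columns.

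The transformation was inverted from its lowest value, 0.92971568. With size factors of 0.721 to 1.53 per library, 100% of values came out as whole reads within 0.05. No pair of libraries of a tissue agreed within counting noise (chi-square per gene at least 11.0). All 38392 genes were compared between tissues on the deposited log2 values by limma 3.58.1 (R 4.3.3), without covariates, filter or intensity trend. Results are 2-sided, with Benjamini-Hochberg adjustment and a threshold of 0.05, and the script was tested on simulated data. The study itself used a count model. Here the deposited log2 values were compared, and the recovered reads were fitted by limma's voom as an alternative. Windows of 75 bases of each member's longest transcript were searched in all GENCODE M21 transcripts. Promoters were read from RefSeq sequences. Other steps used Python 3.11.15, numpy 2.4.6, pandas 2.3.3, Biopython 1.88 and matplotlib 3.10.9.

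The members, gene lists and tests were chosen with earlier results of these data known. Genes named were all mitochondrial and complex II members, and the 3 largest falls and 3 largest rises among nuclear members of each other complex. Also named were members called against their complex, core subunits, isoform pairs and the 3 most abundant nuclear members per tissue. For complex IV the nuclear subunits Cox4i1, Cox5a and Cox5b were taken with the core subunits. From each related list, this rule took the 3 largest called falls and rises. Atp5h, Atp5pb, Yy1, Nrf1 and the marker genes were added after their values were seen. 1 gene that this rule names is not reported here.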

Additional observations from a re-analysis of the deposited data

Results flagged for a closer look

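Of 226 groups of 4 libraries examined for the genes named and the summed reads, 15 held a library far from the other 3, where chance alone gives about 1 in 20 groups, or 11.3. In 10 of the 15 the other 3 libraries had no read, so the ratio of the gap to the range was 1: Cox20 in small intestine (SI_6), Cox7b2 in both tissues (BM_5 and SI_10), Cox8c, Ndufa11b and Ndufs6b in bone marrow (BM_5), mt-Atp6 in both tissues (BM_1 and SI_6), mt-Co2 in bone marrow (BM_3) and mt-Nd4l in bone marrow (BM_1).

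The other 5, fewer than the 11.3 groups that chance alone gives, were at well-covered genes or summed reads. SI_6 was apart from the other small intestine libraries as the highest for Tmem70 (gap over range 0.863) and mt-Cytb (0.866), and as the lowest for Gabpb1 (0.858). SI_10 was the lowest for Slc25a4 (0.842). BM_5 was the lowest bone marrow library for the summed reads of complex II (0.851). SI_6 also had the highest shares of epithelial genes (0.145% of its reads), of macrophage and dendritic genes (0.170%) and of B and plasma cell genes (0.125%), and their part in these values was not tested.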

How the results depend on the processing

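No paired analysis was possible because the labels of the tissues share no replicate numbers. The 31 lower calls became 66 and 72, and the 5 higher calls 1 and 2, when libraries were centred on the median over all genes or when voom used library sizes without mitochondrial and ribosomal RNA. The first moves the median of all genes from 0.37 to -0.53. Under those 2 settings the medians were -1.44 and -0.97 for nuclear members, -1.05 and -0.46 for mitochondrial members, -1.53 and -1.07 for complex I, -1.27 and -0.79 for complex II, -1.35 and -0.87 for complex III, -1.01 and -0.54 for complex IV and -1.53 and -1.05 for complex V. Quantile normalisation gave -0.77 for mitochondrial members. Complex IV was at -0.33 over members with at least 10 reads and at -0.30 without tissue-restricted isoforms. The cause was not tested. The mitochondrial share was 9.40 percentage points higher in small intestine, but -0.21 points as a share of all reads. Leaving out each library gave 20 to 44 lower and 2 to 7 higher calls, medians of -0.65 to -0.44 for nuclear members, -0.29 to 0 for mitochondrial members, -0.75 to -0.54 for complex I, -0.54 to -0.27 for complex II, -0.54 to -0.33 for complex III, -0.23 to -0.05 for complex IV and -0.86 to -0.54 for complex V, and 7.45 to 11.0 points for the share. Restricting the medians to members with under 50% of windows shared elsewhere, chosen after seeing the data, moved none by more than the spread between libraries. Of the 31 lower calls 20 were made under every alternative, and of the 5 higher calls none was. Atp5md turned to -0.30 and Mterf1b to -0.018 with centring on all genes, mt-Nd1 to -0.81 with quantile normalisation, and Sdha to -0.35 with the reduced library sizes. Depth limits the 14 members with a mean under 10 reads.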
